A study of Canis lupus familiaris with 29 samples.

Results

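Canine pheochromocytomas and paragangliomas (PPGLs) of group 2 were ranked by their MKI67 level, and the 6 tumors with the most MKI67 (MKI67-high) were set against the 6 with the least (MKI67-low). The members were chosen by measured MKI67 alone, as CPM (the gene's count scaled by the sum of all gene counts of that tumor). All 12 group 2 tumors entered the ranking, of 29 samples in the series. Chromaffin cells make catecholamines, and PPGLs are tumors of these cells, in the adrenal medulla or in paraganglia. The other samples were 7 PPGLs of group 1 and 10 normal adrenal medullas (NAMs), and all were whole tissue read by RNA-seq, with no treatment in the labels. The submitters set the group numbers by principal component analysis of these same expression profiles, after outlier tumors were excluded. The groups are therefore no label independent of expression. Tumor tissue came from client-owned dogs, 1 tumor a dog, at surgery or after euthanasia, while NAMs came from healthy dogs. Age, sex and breed were not used here. Tumors are named below by group and replicate number. Total counts were 18208700 to 24569700 in group 2, with a median of 22051700.

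MKI67 encodes Ki-67, a protein that coats the chromosomes of dividing cells and is made in all active phases of the cell cycle, and is used in pathology as a marker of proliferation. The gene (ENSCAFG00000013255) lies on CanFam3.1 chromosome 28 from 36913023 to 36939486, with 8888 bases of exon. In the MKI67-high tumors it was 46.6 CPM in tumor 1, 23.4 in tumor 3, 22.6 in tumor 11, 20.0 in tumor 5, 19.5 in tumor 9 and 13.3 in tumor 8. In the MKI67-low tumors it was 12.4 CPM in tumor 6, 12.3 in tumor 7, 11.8 in tumor 4, 10.7 in tumor 10, 9.94 in tumor 2 and 9.70 in tumor 12. Tumor 1 lay far above all others, and the 7 lowest tumors were close together. The means were 24.2 ± 11.5 and 11.1 ± 1.19 CPM (SD, n = 6 each), and no test was made since MKI67 set the classes.

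The boundary between the classes was within counting error. Just inside it, tumor 8 had 296 reads (95% Clopper-Pearson interval 11.8 to 14.9 CPM), and just outside it, tumor 6 had 284 (11.0 to 13.9 CPM). These intervals cover counting error only. After trimmed mean of M-values (TMM) normalization, which scales each tumor by the bulk of its genes, tumor 7 (13.0 CPM) took the place of tumor 8 (12.7 CPM) among the 6 highest. In the samples that the ranking left out, MKI67 was 4.22 to 349 CPM in group 1 (median 25.8) and 0.913 to 16.5 CPM in NAMs (median 3.95).

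**Figure D1:**
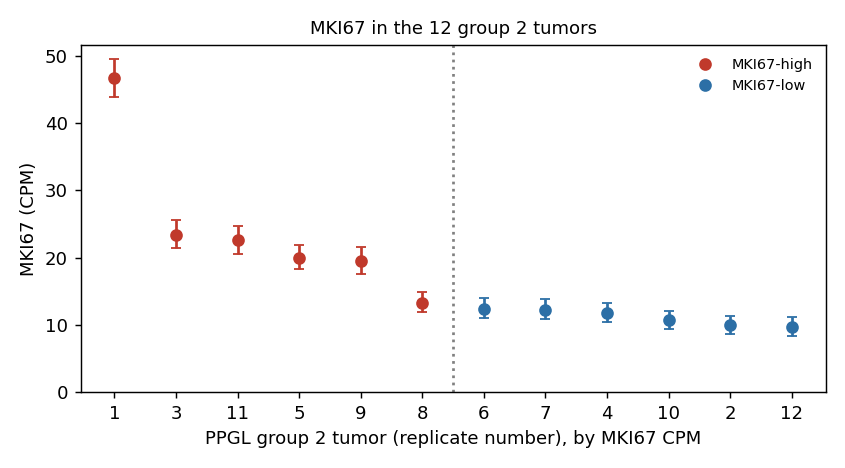
MKI67 in CPM (y axis, from 0) in each of the 12 group 2 tumors (x axis, by replicate number), with 95% Clopper-Pearson intervals as bars and a dotted line between the MKI67-high (red) and MKI67-low (blue) classes. Tumor 1 sits at 46.6 CPM, and the intervals of tumors 8 and 6 on either side of the line overlap.

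MKI67 was left out of the test between the MKI67-high and MKI67-low tumors. The quasi-likelihood test of edgeR covered 14314 genes, and at a Benjamini-Hochberg adjusted p below 0.1 it called 0 (0%), the smallest adjusted p being 0.816. At an unadjusted p under 0.05 there were 486 genes higher (3.4%) and 313 lower (2.19%) in the MKI67-high tumors. This balance moved with scaling and tumor 11, to 817 and 147 with library size only, and to 401 and 402 without tumor 11. The median log2 fold change (log2 FC, MKI67-high over MKI67-low) of all genes was 0.03, and 54.3% of genes were above 0. DESeq2, over a larger set of 21848 genes, called 14 higher and 7 lower. Its calls include an extreme log2 FC of 25.3 (ENSCAFG00000005494). With no filter other than a total count above 0, edgeR tested 22316 genes and called 0. The exact Mann-Whitney U-test, over the 14314 genes, called 0, with 330 higher and 298 lower at an unadjusted p under 0.05. With 6 against 6 tumors, its smallest possible p passes the adjustment only if very many genes fully separate the classes. Only 22 did, so this test could not call genes here and its 0 adds no evidence. Each test on another gene says only how it varied along with the MKI67 class in these tumors. The values below are therefore descriptions: log2 FCs are given ± SE from edgeR, n = 6 against 6, none past the threshold, and CPM is TMM-normalized.

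Genes of mitosis and the spindle leaned to higher values in the MKI67-high tumors. Of 72 genes listed, 68 were found and tested: 0 were called by edgeR, 11 were higher and 0 lower at an unadjusted p under 0.05, and 60 had a log2 FC above 0. By DESeq2 0 of them were called as well. The exact Mann-Whitney U-test, too coarse at 6 against 6 to call genes here, also gave 0. Their median log2 FC was 0.65, against 0.03 for all genes. The mean log2 CPM of the list was 3.15 in tumor 1, 2.85 in tumor 3, 3.15 in tumor 11, 2.26 in tumor 5, 2.77 in tumor 9 and 1.67 in tumor 8. It was 1.77 in tumor 6, 2.43 in tumor 7, 2.07 in tumor 4, 2.58 in tumor 10, 2.47 in tumor 2 and 1.13 in tumor 12. So 4 of the 6 MKI67-high tumors lay above every MKI67-low tumor, while tumors 5 and 8 lay among them and MKI67-low tumors 10, 2 and 7 were above tumor 5. Leaving out each tumor in turn gave 4 genes (without tumor 1 or 11) to 24 genes (without tumor 8) higher at an unadjusted p under 0.05. The number was 32 with the ranking by TMM-normalized MKI67, 31 of 56 with continuous MKI67, 31 with both the ranking and the fit corrected for exon length and 1 with all 29 samples in the fit. The classes are called by MKI67 alone, as the mitosis list would order the tumors otherwise.

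The mitosis genes with the most transcript per kilobase of exon were BUB3, SKA1, CDC25B, UBE2C, NUSAP1 and NCAPD2. BUB3, a part of the checkpoint that holds anaphase until chromosomes are attached, was at 44.0 to 86.3 CPM (median 58.4) in the MKI67-high tumors and 54.4 to 101 CPM (median 64.0) in the MKI67-low tumors (log2 FC −0.24 ± 0.22). SKA1, which ties kinetochores to microtubules, had a log2 FC of −0.15 ± 0.16, and NCAPD2, a condensin subunit, one of −0.03 ± 0.23. CDC25B, a phosphatase that activates CDK1, stood at 0.24 ± 0.55. The classes overlapped in all 4. UBE2C, the ubiquitin-conjugating enzyme of the anaphase-promoting complex, was at 2.31 to 15.4 CPM (median 9.98) in the MKI67-high tumors and 1.94 to 9.05 CPM (median 5.35) in the MKI67-low tumors (log2 FC 0.69 ± 0.50). NUSAP1, which bundles spindle microtubules, was on the other side, at 4.06 to 14.0 CPM (median 9.63) in the MKI67-high tumors and 4.16 to 23.1 CPM (median 15.5) in the MKI67-low tumors (log2 FC −0.64 ± 0.38). It had the lowest log2 FC of the list. The genes at an unadjusted p under 0.05, whose naming followed from their values, were INCENP (0.68 ± 0.27), PRC1 (0.98 ± 0.43), TPX2 (0.89 ± 0.34), KIF20A (0.86 ± 0.38), ANLN (1.11 ± 0.49), NCAPG (1.24 ± 0.41), KIF11 (0.95 ± 0.37), CENPF (0.94 ± 0.42), SKA3 (1.26 ± 0.55), KNL1 (1.05 ± 0.41) and DEPDC1 (1.26 ± 0.48). They include kinesin motors, centromere proteins, a condensin subunit and genes of cytokinesis, and all were higher in the MKI67-high tumors.

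DNA replication genes also had a median above 0. Of 51 listed, 48 were found and tested, 0 were called by edgeR, 6 were higher and 0 lower at an unadjusted p under 0.05, and the median log2 FC was 0.17, or 0.05 without tumor 11 to 0.24 without tumor 10. Their mean log2 CPM was 3.06 to 3.96 in MKI67-high and 2.53 to 3.64 in MKI67-low tumors, and tumors 11 and 9 lay above every MKI67-low tumor. MCM6 and MCM7, subunits of the replicative helicase, had log2 FCs of −0.11 ± 0.43 and 0.06 ± 0.27. MCM6 ranged widely in both classes, at 54.1 to 319 CPM (median 103) in the MKI67-high tumors and 70.9 to 299 CPM (median 132) in the MKI67-low tumors. PCNA, the sliding clamp of the DNA polymerases, was at 34.5 to 86.6 CPM (median 48.6) in the MKI67-high tumors and 36.1 to 67.1 CPM (median 45.2) in the MKI67-low tumors (log2 FC 0.14 ± 0.25). DTYMK, which makes dTDP, had −0.12 ± 0.24, and RPA1, which binds single-stranded DNA, had 0.23 ± 0.22. DUT, which keeps uracil out of DNA, was at 36.1 to 86.5 CPM (median 71.3) in the MKI67-high tumors and 23.8 to 73.8 CPM (median 43.9) in the MKI67-low tumors (log2 FC 0.63 ± 0.29). With DUT, the genes at an unadjusted p under 0.05 were TOP2A (1.19 ± 0.37), RRM2 (1.41 ± 0.54), CDC6 (1.12 ± 0.42), DTL (1.19 ± 0.49) and CLSPN (1.19 ± 0.52). RRM2 is a subunit of ribonucleotide reductase, CDC6 licenses replication origins, CLSPN signals stalled forks, and DTL marks licensing factors for breakdown.

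Cell cycle regulators were mixed. Of 38 listed, 33 were found and 32 tested, 0 were called by edgeR, 3 were higher and 1 lower at an unadjusted p under 0.05, and the median log2 FC was 0.26. It was 0.09 without tumor 5 and 0.02 with the ranking by the mitosis list. CDK4, the kinase that drives cells out of G1, was at 89.4 to 136 CPM (median 117) in the MKI67-high tumors and 107 to 138 CPM (median 127) in the MKI67-low tumors (log2 FC −0.13 ± 0.14). CDKN1B (p27), a CDK inhibitor, had a log2 FC of −0.18 ± 0.23, and CDKN2C (p18), which inhibits CDK4, had −0.06 ± 0.37. MYC, a growth-promoting transcription factor, was at 44.6 to 142 CPM (median 73.0) in the MKI67-high tumors and 45.7 to 268 CPM (median 92.6) in the MKI67-low tumors (log2 FC −0.46 ± 0.44). Its highest value was in the MKI67-low class. RBL2 (p130), a repressor of cell cycle genes in resting cells, had a log2 FC of 0.14 ± 0.19, and FZR1, an activator of the anaphase-promoting complex, had −0.06 ± 0.22. The genes at an unadjusted p under 0.05 were E2F8 (1.49 ± 0.56), PKMYT1 (1.33 ± 0.59) and LIN54 (0.68 ± 0.24) above 0 and CCNE1 (−0.81 ± 0.36) below 0. E2F8 represses and CCNE1 (cyclin E1) drives entry into S phase, PKMYT1 inhibits CDK1, and LIN54 belongs to the complex that switches cell cycle genes.

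DNA repair genes were all found and tested, 28 of 28. None of them was called by edgeR, 2 were higher and 0 lower at an unadjusted p under 0.05, and the median log2 FC was 0.15. It was 0.33 without tumor 10 and 0.43 with the ranking by TMM-normalized MKI67. The mismatch repair gene MSH6 (−0.07 ± 0.17) stayed near 0, as did DNMT1 (0.11 ± 0.21), the maintenance DNA methyltransferase, and EZH2 (−0.05 ± 0.25), the methylase of Polycomb repression. XRCC2, a gene of homologous recombination, had a log2 FC of −0.14 ± 0.34. ATAD2, a chromatin ATPase, was at 17.3 to 48.9 CPM (median 31.8) in the MKI67-high tumors and 7.97 to 29.8 CPM (median 17.6) in the MKI67-low tumors (log2 FC 0.80 ± 0.32).

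**Figure D2:**
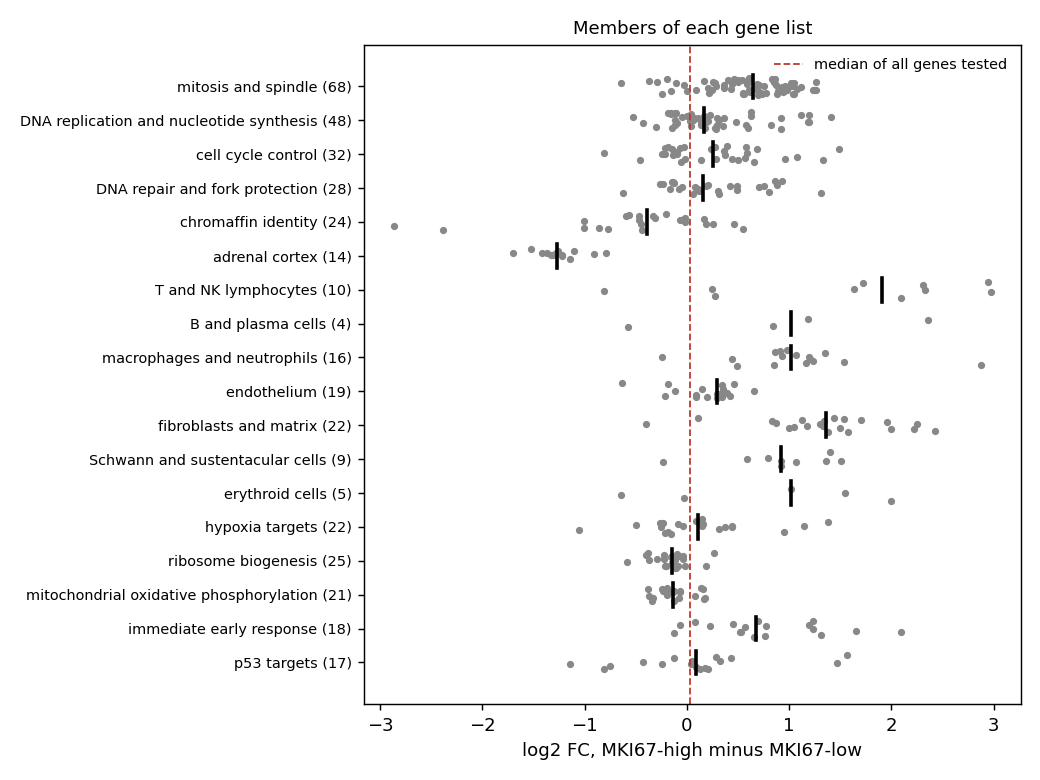
Log2 FC of MKI67-high over MKI67-low tumors (x axis) for each tested member (grey points, spread vertically at random for view) of the 18 gene lists (y axis, with the number tested), with a black bar at the list's median and a dashed line at the median of all genes tested. The median of the mitosis list is 0.65 and that of the adrenal cortex list is −1.27 (−0.32 without tumor 10), with no gene past the threshold.

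Over the 12 tumors, the genes whose log2 CPM followed MKI67 most closely were, by Pearson's r from the highest, DEPDC1, RTKN2, KNL1, KIF11, TOP2A, KCTD5, the unnamed ENSCAFG00000016482, CCDC85A, DIAPH3 and NCAPG2. They were picked as the closest among all genes tested, so this is a description. DEPDC1, KNL1, KIF11 and TOP2A were on the cell cycle lists. KNL1 builds the outer kinetochore, and KIF11 is the kinesin that pushes spindle poles apart. DIAPH3 nucleates actin filaments, NCAPG2 is a condensin subunit, DEPDC1 is needed for mitosis, and KCTD5 is an adaptor of a ubiquitin ligase. TOP2A, the topoisomerase that untangles sister chromatids, was at 11.6 to 62.9 CPM (median 44.6) in the MKI67-high tumors and 8.47 to 23.3 CPM (median 19.9) in the MKI67-low tumors. It overlapped between the classes only through tumor 8. CCDC85A was at 0.350 to 34.9 CPM (median 1.84) in the MKI67-high tumors and 0.431 to 0.852 CPM (median 0.633) in the MKI67-low tumors, so its log2 FC (3.53 ± 1.01) rested mostly on tumor 1.

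Of 7 fixed proliferation markers besides MKI67, 6 were found by name, and their relation to MKI67 was tested over the 12 tumors on log2 TMM-normalized CPM with 2-sided permutation tests, adjusted over the 6. TOP2A had r = 0.85 (permutation p = 0.000340, adjusted p = 0.00204) and a Spearman coefficient of 0.82 (permutation p = 0.00160, adjusted p = 0.00960). BUB1, a kinase of the spindle checkpoint, had r = 0.77 (permutation p = 0.00496, adjusted p = 0.0149) and a Spearman coefficient of 0.73 (permutation p = 0.00932, adjusted p = 0.0280). Without tumors 1 and 11, the farthest from the median of MKI67 on this scale, r was 0.75 for TOP2A and 0.45 for BUB1 (n = 10), so the value of BUB1 rested in part on these tumors. CDK1, the mitotic kinase, had r = 0.54 (permutation p = 0.0461, adjusted p = 0.0922) and a Spearman coefficient of 0.61 (permutation p = 0.0406, adjusted p = 0.0813), with r = 0.48 without the same tumors. AURKA, a spindle pole kinase, had r = 0.32 (permutation p = 0.313, adjusted p = 0.470) and a Spearman coefficient of 0.53 (permutation p = 0.0815, adjusted p = 0.122), with r = 0.27 without them. PCNA had r = 0.18 (permutation p = 0.558, adjusted p = 0.558) and a Spearman coefficient of 0.30 (permutation p = 0.341, adjusted p = 0.381), and MCM2 had r = 0.21 (permutation p = 0.540, adjusted p = 0.558) and a Spearman coefficient of 0.28 (permutation p = 0.381, adjusted p = 0.381). Without tumors 1 and 11 these were r = 0.00 and r = −0.23. TOP2A, BUB1 and CDK1 had an adjusted p under 0.1 by both coefficients, and differences between markers were not tested. These tests used MKI67 of the same 12 tumors that set the classes, so they are no separate evidence for the split. The points share library depth and tissue makeup.

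The same relation was tested in samples that the ranking did not use. In the 7 group 1 tumors, edgeR tested 12078 genes for a slope on log2 MKI67 CPM and called 214 rising (1.77%) and 74 falling (0.613%) with MKI67. Of the lists, it called 38 of 61 mitosis genes, 16 of 47 replication genes, 12 of 27 repair genes and 6 of 30 cell cycle regulators, all with positive slopes, and 1 chromaffin and 1 endothelial gene with negative slopes. Slopes in group 1 also moved with exon length: at an unadjusted p under 0.05 128 slopes were above and 195 below 0 in the shortest of 5 bins by exon length, and 328 above and 140 below 0 in the longest. No length correction of these slopes was made. The median slope of the mitosis list was 0.66 log2 units per log2 unit of MKI67, against −0.000795 for all genes. TOP2A had a slope of 0.96 ± 0.13 (SE, edgeR adjusted p = 0.0280). Leaving out group 1 tumor 1, 3, 5 or 6 gave 116, 74, 82 and 62 called genes. The calls rested most on group 1 tumor 7, at 349 CPM of MKI67: without it edgeR called 0 genes, with 475 rising and 373 falling at an unadjusted p under 0.05, 28 of them rising mitosis genes. Of the 38 mitosis genes called in group 1, 35 had a log2 FC above 0 in group 2, 7 of them at an unadjusted p under 0.05, and their median log2 FC was 0.71. Over the whole mitosis list 60 of 68 were above 0 and 11 were at that p, a similar share.

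In the 10 NAMs, edgeR called 4 rising genes (0.0304%) of 13168 and none falling, with 367 rising and 413 falling at an unadjusted p under 0.05. They were CENPF (0.76 ± 0.09, adjusted p = 0.0712), PRC1 (0.76 ± 0.11, adjusted p = 0.0781), RACGAP1 (0.67 ± 0.09, adjusted p = 0.0781) and REXO5 (0.78 ± 0.11, adjusted p = 0.0787), given with slope ± SE and named after their values were seen. CENPF is a kinetochore protein, and PRC1 and RACGAP1 organize the central spindle. Leaving out NAM 1, 6, 9 or 10 in turn gave 0 calls, and leaving out NAM 4 gave 19. Of the mitosis list, 42 genes were tested in NAMs, and 36 had a slope above 0 (median 0.17). At an unadjusted p under 0.05, 17 of them rose and 0 fell, and 12 rose without NAM 10. The slopes of groups 1 and 2 were compared in the 19 PPGLs, and the edgeR test of the difference called 0 of 14665 genes (0%), with 296 differences (group 1 less group 2) above 0 and 484 below 0 at an unadjusted p under 0.05. The median difference of the mitosis list was −0.07. A slope called in group 1 is thus not shown to differ from that of group 2.

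Genes of leukocytes were higher in a part of the MKI67-high tumors. In bulk tissue, fewer cells of a type and less RNA per cell cannot be told apart. Of 24 T and NK genes, 21 were found and 10 tested, 3 were higher and 0 lower at an unadjusted p under 0.05 with 0 called by edgeR, and the median log2 FC was 1.91, or 0.97 without tumor 11 to 2.49 without tumor 4. Their mean log2 CPM was 4.32 in tumor 11 and 3.29 in tumor 9, and 1.47 or less in the other MKI67-high tumors, against 0.18 to 2.07 in the MKI67-low class. So only tumors 11 and 9 lay above the MKI67-low class. The summed level of the list ran from 20.4 CPM in tumor 6 to 419 in tumor 11. Its most abundant genes per kilobase were CD4, the coreceptor of helper T cells (also made by macrophages), at 1.40 to 199 CPM (median 6.10) in the MKI67-high tumors and 0.641 to 19.1 CPM (median 5.63) in the MKI67-low tumors, the chemokine CCL5 (2.31 ± 0.93) and the T cell adhesion gene CD2 (1.63 ± 0.85). CD3E was at 0.541 to 20.7 CPM (median 3.64) in the MKI67-high tumors and 0.166 to 5.98 CPM (median 0.910) in the MKI67-low tumors, and CD3D failed the filter and was at 0 in 1 tumor.

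Fibroblast and matrix genes had a like pattern, led by tumor 11. All 22 were tested, 3 were higher and 0 lower at an unadjusted p under 0.05 with 0 called by edgeR, and the median log2 FC was 1.36, or −0.24 without tumor 11, with the opposite sign. The mean log2 CPM was 9.83 in tumor 11 and 7.36 in tumor 9, and 5.27 to 7.22 in the MKI67-low tumors. The other 4 MKI67-high tumors were at 5.15 to 5.42, near or below the lowest MKI67-low tumor. The summed level ran from 4338 CPM in tumor 10 to 45211 in tumor 11, and by this sum tumor 9 (7996 CPM) was below MKI67-low tumors 4 (9734) and 2 (8364). RGS5, a gene of pericytes, and THY1, a surface glycoprotein, were the most abundant per kilobase with log2 FCs of 0.10 ± 0.49 and −0.40 ± 0.63, both lowest in tumor 9, and SPARC, a matrix glycoprotein, had 0.83 ± 0.59. COL1A1, the main chain of type I collagen, was at 94.2 to 8084 CPM (median 121) in the MKI67-high tumors and 56.9 to 2126 CPM (median 376) in the MKI67-low tumors. Its log2 FC (1.44 ± 1.20) was positive although its median was lower in the MKI67-high class.

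**Figure D3:**
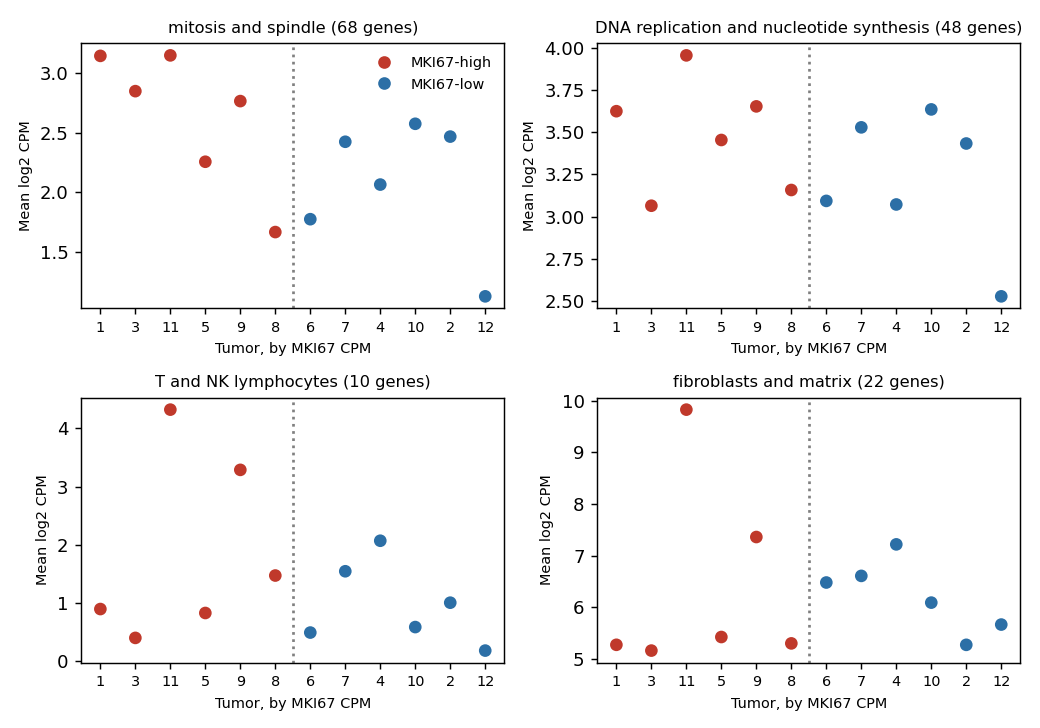
Mean log2 CPM (y axes, not starting at 0) of 4 gene lists in each group 2 tumor (x axes, by MKI67 CPM from high to low), MKI67-high in red and MKI67-low in blue. Tumor 11 is highest in all 4 panels, at 9.83 for fibroblast and matrix genes, and tumor 12 is lowest in 3 of them.

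Macrophage and neutrophil genes had a median log2 FC of 1.02 (0.05 without tumor 11) over 16 tested of 17 found and 20 listed, with 1 higher at an unadjusted p under 0.05 and 0 called by edgeR. Their summed level ran from 519 CPM in tumor 3 to 4216 in tumor 11. C1QB and C1QC, chains of complement C1q made by macrophages, had log2 FCs of 0.91 ± 0.58 and 0.85 ± 0.58, and the alarmin S100A8 had −0.25 ± 0.59. CD163, a scavenger receptor, was at 14.1 to 319 CPM (median 54.1) in the MKI67-high tumors and 19.9 to 54.1 CPM (median 32.9) in the MKI67-low tumors. Of 13 B and plasma cell genes, all found, 4 were tested, with 2 higher and 0 lower at an unadjusted p under 0.05 and 0 called by edgeR. Their median log2 FC was 1.01, or 0.07 without tumor 11 (summed level from 239 CPM in tumor 3 to 2001 in tumor 11). JCHAIN, which joins secreted antibodies, was at 31.9 to 1466 CPM (median 71.5) in the MKI67-high tumors and 24.6 to 91.5 CPM (median 59.7) in the MKI67-low tumors, its top value being in tumor 11. CD79A, a part of the B cell receptor, was at 177 to 461 CPM (median 228) in the MKI67-high tumors and 227 to 521 CPM (median 423) in the MKI67-low tumors, while MS4A1 (CD20) was at 0 in 2 MKI67-high and 3 MKI67-low tumors and failed the filter. DERL3, an endoplasmic reticulum gene of plasma cells, had a log2 FC of 0.84 ± 0.71. Endothelial genes, 19 of 19 tested, had a median log2 FC of 0.30, or −0.04 without tumor 9 (summed level from 562 CPM in tumor 5 to 2075 in tumor 9), with PLVAP (−0.12 ± 0.30), PECAM1 (0.39 ± 0.37) and ENG (0.15 ± 0.37) the most abundant.

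Results were therefore also taken without tumors 9 and 11, a choice made after seeing the data. The median log2 FC then was −0.20 for T and NK genes, −0.61 for macrophage genes, −1.09 for fibroblast genes, −0.42 for endothelial genes, −0.32 for B and plasma cell genes and −0.94 for erythroid genes, all with the opposite sign. For mitosis genes it was 0.53, with 2 of 68 higher at an unadjusted p under 0.05, and for replication genes −0.01. Across all genes edgeR called 0, with 516 higher and 782 lower at an unadjusted p under 0.05. For chromaffin genes the median was −0.10. With all 12 tumors and the lymphocyte score as a covariate, also chosen after seeing the data, edgeR called 0 genes, with 445 higher and 614 lower at an unadjusted p under 0.05, and 4 mitosis genes were higher at that p. Their median log2 FC then was 0.53, that of replication genes −0.01 and that of chromaffin genes −0.10. Whether leukocytes or stroma account for any of these values was not tested.

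Schwann and sustentacular genes mark glial cells, among them the sustentacular cells that support chromaffin cells. Of 12 listed, 11 were found and 9 tested, with a median log2 FC of 0.92. It was 1.87 without tumor 2 and 0.40 with the ranking by the mitosis list. The summed level ran from 39.9 CPM in tumor 10 to 214 in tumor 9. Among the most abundant were the myelin gene PMP22 (0.92 ± 0.43) and the glial cadherin CDH19 (1.40 ± 0.96). S100B, the usual marker of sustentacular cells, was at 0 in 4 MKI67-high and 1 MKI67-low tumors and at most 0.620 CPM, while SOX10, the glial transcription factor, was at 0.0551 to 10.9 CPM (median 2.78) in the MKI67-high tumors and 0.191 to 7.69 CPM (median 1.18) in the MKI67-low tumors. Of 12 erythroid genes, all found, 5 were tested, with a median log2 FC of 1.02, or −0.21 without tumor 11, whereas the mean log2 CPM differed by −0.07 and so had the other sign. The summed level ran from 36.6 CPM in tumor 12 to 149 in tumor 6. GYPC (−0.64 ± 0.45), ALAS2 (2.00 ± 1.03) and AHSP (1.55 ± 0.97) were the most abundant, genes of the red cell membrane, of heme and of free alpha globin.

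Chromaffin genes leaned to lower values in a part of the MKI67-high tumors. Of 26 listed, 24 were found and tested, 0 were called by edgeR, 0 were higher and 2 lower at an unadjusted p under 0.05, and the median log2 FC was −0.39. The mean log2 CPM was lowest in tumor 11 (7.02), tumor 9 (7.58) and tumor 1 (7.79), and 8.02 to 9.07 in the MKI67-low class. The other MKI67-high tumors, 3 (8.85), 5 (8.41) and 8 (8.26), lay within that range. Without tumors 9 and 11 the median log2 FC was −0.10, nearer 0, and without tumor 12 it was −0.22. PENK, the precursor of enkephalins, was at 4198 to 63004 CPM (median 19185) in the MKI67-high tumors and 154 to 63324 CPM (median 36035) in the MKI67-low tumors (log2 FC −0.44 ± 1.05). CHGB, a granin of the secretory granules, was at 9337 to 67546 CPM (median 13864) in the MKI67-high tumors and 13434 to 78991 CPM (median 45127) in the MKI67-low tumors (log2 FC −1.0 ± 0.56). DBH, which makes norepinephrine, was at 3191 to 22393 CPM (median 4818) in the MKI67-high tumors and 7223 to 15026 CPM (median 13172) in the MKI67-low tumors (log2 FC −0.33 ± 0.51). The median of all 3 was lower in the MKI67-high class, and the classes overlapped. TH, the rate-limiting enzyme of catecholamine synthesis, was at 892 to 6484 CPM (median 2344) in the MKI67-high tumors and 32.1 to 3432 CPM (median 2029.7) in the MKI67-low tumors, and the chromaffin marker SYP was present in every tumor. The genes at an unadjusted p under 0.05 were the lineage transcription factors HAND1 (−2.86 ± 1.19) and GATA2 (−0.86 ± 0.35).

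Steroid-producing cells of the adrenal cortex lie next to the medulla. All 14 cortical genes found of 17 listed were tested, 0 were called by edgeR and 0 had an unadjusted p under 0.05, yet all had a log2 FC below 0, with a median of −1.27, which was −0.32 without MKI67-low tumor 10. Their summed level ran from 289 CPM in tumor 7 to 35302 in tumor 10, and the mean log2 CPM spanned 4.14 to 7.44 in the MKI67-high and 2.77 to 9.22 in the MKI67-low tumors. The range of the MKI67-low class enclosed that of the other. CYP17A1, the enzyme at the branch to cortisol, was at 196 to 3829.7 CPM (median 1155) in the MKI67-high tumors and 10.2 to 11734 CPM (median 1474) in the MKI67-low tumors (log2 FC −1.10 ± 1.05). STAR, which brings cholesterol into mitochondria, had a log2 FC of −0.79 ± 0.74, and HSD3B2, a steroid dehydrogenase, had −1.22 ± 1.03. Without tumor 10 the log2 FC was 0.07 for STAR and −0.12 for HSD3B2. With the cortical level as a covariate the median log2 FC of the mitosis list was 0.64.

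Growth and stress lists gave no calls by edgeR. Hypoxia targets, 22 tested of 23 found and 25 listed, had a median log2 FC of 0.11, with the opposite sign without tumor 11 (−0.12) or tumor 1 (−0.02). Of their most abundant genes, ADM, a vasodilator peptide, was at 112 to 829.7 CPM (median 314) in the MKI67-high tumors and 348 to 1029.7 CPM (median 821) in the MKI67-low tumors (log2 FC −1.05 ± 0.45), while EPAS1 (0.38 ± 0.32), a hypoxia-inducible factor, and the glycolytic PGK1 (0.09 ± 0.17) were above 0. Ribosome biogenesis genes, 25 of 25 tested, had a median of −0.15 (−0.24 without tumor 3 to −0.09 without tumor 12), with 2 above 0. FBL, the methylase of ribosomal RNA, was at 57.0 to 101 CPM (median 62.7) in the MKI67-high tumors and 73.1 to 131 CPM (median 106) in the MKI67-low tumors (log2 FC −0.58 ± 0.19), and the nucleolar NCL (−0.12 ± 0.20) and NOP56 (−0.22 ± 0.21) were also below 0. Nuclear-encoded subunits of oxidative phosphorylation, 21 tested of 21 found and 28 listed, had a median of −0.13 (−0.23 without tumor 6 to −0.08 without tumor 2), with 5 above 0 and ATP5F1B (−0.21 ± 0.17), ATP5F1A (−0.33 ± 0.22) and COX4I1 (−0.13 ± 0.23) the most abundant. With the ranking by the mitosis list the median of these subunits was 0.14, the opposite sign. Immediate early genes, 18 tested of 18 found and 20 listed, had a median of 0.68, which was 1.49 without tumor 4, 0.42 without tumor 3 and 0.29 with the ranking by TMM-normalized MKI67. The transcription factor EGR1 was at 298 to 1347 CPM (median 604) in the MKI67-high tumors and 40.9 to 1401 CPM (median 257) in the MKI67-low tumors, and JUNB (−0.07 ± 0.58) and FOS (0.52 ± 0.65) stood beside it. The mean log2 CPM of that list ranged over 3.55 to 6.48 in the MKI67-high and 3.01 to 6.61 in the MKI67-low tumors, with means of 5.61 and 4.51. Tumor 5 alone made the low end of the MKI67-high range, and the others were at 5.61 to 6.48. MKI67-low tumors 6, 2 and 12 were at 3.01 to 3.41, while tumor 4 was the highest of all. Targets of p53, 17 tested of 17 found and 20 listed, had a median of 0.09 (−0.04 without tumor 11 and −0.19 without tumors 9 and 11), with CCNG1 (−0.81 ± 0.32), GADD45B (0.09 ± 0.67) and SESN1 (0.29 ± 0.42) the most abundant, all induced on DNA damage. The mean log2 CPM of the p53 list differed by −0.04, the other sign than its median.

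The log2 FC also moved with exon length. In 5 bins of tested genes from short to long, the median log2 FC was −0.05, 0.01, 0.02, 0.06 and 0.13. In the shortest bin (up to 1125 bases) 50 genes were higher and 101 lower at an unadjusted p under 0.05, and in the longest (from 3669 bases) 164 were higher and 37 lower. Genes over 5000 bases held 12.6 ± 1.29% of counts in MKI67-high and 10.4 ± 1.82% in MKI67-low tumors (SD, n = 6 each). MKI67 itself is among them. With a smooth of each tumor's deviation on exon length as an offset, edgeR called 0 genes, with 397 higher and 298 lower at an unadjusted p under 0.05, and 6 mitosis genes were higher at that p, against 11 without the offset. The median log2 FC was then 0.58 for the mitosis list, 0.17 for the replication list and 0.01 for the repair list, the last against 0.15 without the offset. Ranking by MKI67 corrected in this way also put tumor 7 in place of tumor 8. Depth differed little: total counts had means of 21410000 ± 2034070 and 22226500 ± 2043310 (exact 2-sided permutation p = 0.5). The part of RNA quality in the length trend was not tested.

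**Figure D4:**
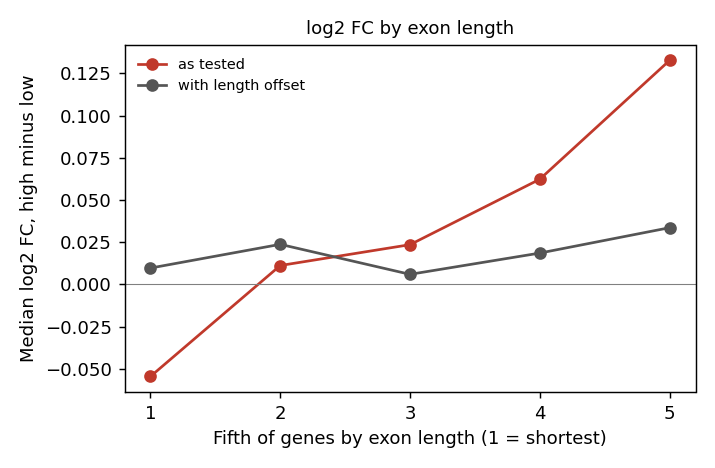
Median log2 FC of MKI67-high over MKI67-low tumors (y axis) in 5 equal bins of genes by exon length (x axis, shortest first), as tested (red) and with the length offset (grey). The red line goes from −0.05 to 0.13, and the grey line stays between 0.01 and 0.03.

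The genes with the lowest unadjusted p were named after their values were seen. SCN3A, a neuronal voltage-gated sodium channel, was at 2.20 to 87.0 CPM (median 27.8) in the MKI67-high tumors and 1.53 to 3.89 CPM (median 2.73) in the MKI67-low tumors (log2 FC 3.55 ± 0.66, adjusted p = 0.816 by edgeR and 2.70e−05 by DESeq2). PCDHB16, a protocadherin from a cluster of near-identical genes whose counts are uncertain, was at 0.607 to 6.80 CPM (median 3.1) in the MKI67-high tumors and 1.66 to 93.3 CPM (median 46.7) in the MKI67-low tumors (log2 FC −3.68 ± 0.77, adjusted p = 0.816 by edgeR and 0.000371 by DESeq2). DDN, a gene of neuronal dendrites, was at 0.326 to 16.9 CPM (median 2.42) in the MKI67-high tumors and 0.0458 to 0.534 CPM (median 0.257) in the MKI67-low tumors. In MKI67-low tumors 4 and 7 it was at 0.0458 and 0.0479 CPM, a level of very few reads. All 3 overlapped between the classes. Of the 14314 genes, 22 did not overlap (0.154%), and no listed gene was among them. They include KRTCAP2, a subunit of the glycosylation machinery, at 85.0 to 107 CPM (median 101) in the MKI67-high tumors and 119.8 to 188 CPM (median 151) in the MKI67-low tumors, and PDLIM4, an actin-binding protein, at 2.24 to 42.6 CPM (median 34.9) in the MKI67-high tumors and 51.4 to 71.9 CPM (median 59.2) in the MKI67-low tumors.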

How the data were processed

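RNA-seq libraries were made with the TruSeq Stranded mRNA kit, and the deposited values are raw counts per gene, which the authors obtained over exons with CanFam3.1 as the genome. Their processing notes name FastQC, STAR, Picard and HTSeq, while the name of the deposited table points to featureCounts; the counting tool is therefore uncertain, and the strand setting is not given in the sources used here. The table also holds the exon length of each gene, as deposited. Genes were matched by the names in the table, and 38 of 470 listed genes were not found.

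Counts were tested with edgeR 4.0.16 in R 4.3.3 (filterByExpr with a minimum count of 10, TMM, quasi-likelihood, Benjamini-Hochberg over all genes other than MKI67, threshold 0.1). DESeq2 1.42.0 was an alternative. Permutation tests used SciPy 1.17.1, with 100000 resamples for correlations. Log2 CPM had a prior count of 2. SE is the log2 FC over the square root of F. The group 2 tumors were ranked by MKI67 CPM into 6 and 6, so the classes come from measured values, and the Clopper-Pearson intervals cover counting error only. Named genes were, by rule, up to 12 called genes per direction (none passed), the 6 most abundant per kilobase of each of 4 cell cycle lists and the 3 most abundant of each other list, and the 10 most correlated with MKI67; others are said to be named after their values were seen. The members and lists were chosen with earlier results of these data known. Alternatives changed normalization, filter, test, ranking, class size, covariates and samples. Some listed genes are not reported here. No promoter sequences were used here.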

Additional observations from a re-analysis of the deposited data

Results flagged for a closer look

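In 222 groups of values (each class, group 1 or NAMs, for MKI67, total counts, list levels and named genes), 17 values lay far from the rest of their group by Dixon's criterion; chance alone gives about 1 in 20. MKI67 stood apart in tumor 1 among the MKI67-high tumors (46.6 CPM), in group 1 tumor 7 (349 CPM) and in NAM 10 (16.5 CPM). Without group 1 tumor 7 no slope was called in group 1. The immediate early list was low in MKI67-high tumor 5 (mean log2 CPM 3.55), and the B and plasma cell list was low in MKI67-low tumor 12 (2.4).

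On the scale log2(CPM + 1), in the MKI67-high class tumor 11 was high for CD4 (7.65) and JCHAIN (10.52), which are immune genes, and for FBL (6.68). Tumor 9 was low for RGS5 (6.96) and THY1 (7.63), tumor 3 was high for SKA1 (5.55) and low for CCNG1 (6.09), tumor 8 was low for NUSAP1 (2.34) and tumor 5 was high for LRRC74B (2.32). In the MKI67-low class tumor 7 was low for NUSAP1 (2.37), tumor 4 was low for DBH (12.82) and high for LRRC74B (1.00). On the first principal component of the 500 most variable genes, tumor 11 lay at 71.4 and the other group 2 tumors between −25.1 and 16.1.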

How the results depend on the processing

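The count of 0 genes between the classes held with DESeq2 size factors, library size only, both other filters, the exact Mann-Whitney U-test, rankings by TMM-normalized MKI67 or by the mitosis list, 5 against 5, 4 against 4, continuous MKI67, the cortical covariate and all 29 samples. It also held in the fits chosen after seeing the data (without tumors 9 and 11, the length offset with either ranking, the lymphocyte covariate). DESeq2's Wald test, over 21848 genes, called 21, and leaving out each tumor gave 0 to 1 by edgeR (SCN3A, without tumor 1). The cause was not tested. The median log2 FC of the mitosis list was 0.50 to 0.87 over its 26 alternatives, all above 0, and that of the replication list −0.01 to 0.38, with 2 below 0. With the ranking by the mitosis list the cortical median was 1.54 and the oxidative phosphorylation median 0.14, both with the opposite sign. With the lymphocyte covariate the medians of the B and plasma cell, macrophage, endothelial, fibroblast and erythroid lists were below 0. Of 86 named genes, 36 kept their sign in every alternative. In group 1, 288 genes had a called slope, 636 with library size only and 0 to 287 leaving out each tumor (0 without tumor 7); for mitosis genes the latter was 0 to 37. In NAMs it was 0 to 19 against 4. For the difference of slopes, leaving out group 1 tumor 7 gave 1 gene (TMTC4) against 0. The total counts of the 5 highest and 5 lowest differed by −847181 (exact permutation p = 0.540). No paired analysis was possible because replicate numbers count different dogs and the classes lie within 1 group. Depth limits MKI67 at the class boundary, where the intervals of neighbours overlap.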

Other observations

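Cytosolic ribosomal protein genes, a list chosen after values were seen and so not tested, were below 0 for 52 of 54 genes, with a median log2 FC of −0.48 and 19 lower at an unadjusted p under 0.05. Of all genes tested, 2.19% were lower at that p. With the length offset 51 of 54 were below 0, with a median of −0.42 and 16 lower at that p. Their median exon length was 773 bases.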
